A study of Mus musculus with 14 samples.

Results

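Activated CD4+ T cells that received interferon alpha together with a JAK inhibitor labelled JAK1, JAK1/2, PAN or TYK2 were compared between 8 h and 2 h, in 4 pairs of arrays that make up 8 of the 14 arrays of the series. The inhibitors, as their sample titles name them, were IFN.3404 with the target label JAK1, IFN.6221 with JAK1/2, IFN.6222 with PAN and IFN.2485 with TYK2, chosen because their labels name a kinase of the interferon receptor or, for PAN, were taken to include one. They are named below by target label, and values are always given in that order. The cells of every array were splenic CD4+ T cells of male C57BL/6 mice aged 6 weeks, obtained by negative selection and stimulated for 48 h with beads carrying antibodies to CD3 and CD28. Interferon alpha at 100 U/ml and 1 inhibitor at its IC80 were then present for 2 h or 8 h. The other 6 arrays had the same stimulation and interferon, with the inhibitor IFN.3885 (JAK2) or with IFN.6226 and IFN.6228 (both JAK3). How many animals each culture came from is not given in the sources used here, and no array lacking interferon or inhibitor was used here. Each inhibitor and time had 1 array, so p-values measure how unevenly the 4 inhibitors changed and not the spread between repeated cultures.

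The type I interferon receptor consists of IFNAR1 and IFNAR2 and carries the kinases TYK2 and JAK1, which phosphorylate STAT proteins. STAT2 acts together with IRF9 at the interferon-stimulated response element in the promoters of antiviral genes, while USP18 and SOCS1, products of the same response, restrain the receptor. In stimulated T cells JAK1 also works with JAK3 below the interleukin-2 receptor, where STAT5 drives genes such as Cish and Socs2.

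The arrays were of the Affymetrix type Mouse Gene 1.0 ST, and a level here is the log2 of the deposited intensity of a gene's brightest probe set. A change is the 8 h level minus the 2 h level within an inhibitor, and levels of different genes cannot be ranked against each other. A gene was said to rise or fall where the limma fit paired by inhibitor gave a Benjamini-Hochberg adjusted p under 0.05 over the 11851 genes tested. Of these, 1997 rose (16.9%) and 3224 fell (27.2%), and 5020 of the 5221 had the same sign with all 4 inhibitors. With a change of at least 1.5-fold as well, 251 rose (2.12%) and 807 fell (6.81%). The counts rested on single pairs: without the TYK2 pair 1173 genes rose, without the JAK1/2 pair 1179 rose and 3398 changed either way. They also rested on the scaling of whole arrays, since the share of calls that were rises was 38.2% as deposited, 25.7% after median centring, 48.9% after quantile normalization, 45.7% after cyclic loess and 61.4% after centring on the genes tested. That last scaling moved the median change of all genes from -0.01 to 0.10, so small changes below are read relative to it. Counts within lists are as deposited and moved with the scaling too, and they are given with their range where a scaling moved them by more than 1.5 times. Each is to be read beside the shares of all genes tested, 16.9% that rose and 27.2% that fell.

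Across genes, the changes of any 2 of the 4 inhibitors correlated at 0.695 to 0.873 (11851 genes on the same arrays, which are not independent replicates). The lowest value was for JAK1 with PAN and the highest for PAN with TYK2. Arrays were alike in level, with r between 0.984 and 0.998, but the JAK1 array at 8 h had the lowest upper quartile of intensity, 398.3 against 427.1 to 478.2 in the other 7. The median change of all genes was -0.10 with JAK1, -0.03 with JAK1/2, 0.01 with PAN and 0.02 with TYK2.

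The labelled cell type was checked against its markers. Of 7 markers of CD4+ T cells 6 rose, and their summed levels were 81.5 to 82.5 at 2 h and 84.0 to 84.7 at 8 h. Cd4 rose by 0.34 (SE 0.06, limma adjusted p = 8.50e-04) and Cd3d, of the CD3 complex, by 0.47 (SE 0.07). Markers of other cells moved the same way: 4 of 6 B cell markers rose, with summed levels of 45.9 to 46.9 at 2 h and 47.7 to 48.4 at 8 h, and so did Cd8b1 of CD8+ T cells and 2 of 3 tested macrophage and dendritic cell markers (25.8 to 26.2 against 26.5 to 27.0). After median centring 2 B cell markers rose. Without the PAN pair 1 rose, and 2 did without the JAK1/2 or the TYK2 pair. Of 10 skeletal muscle markers 7 were tested and 4 rose, with summed levels of 47.0 to 53.0 at 2 h and 48.5 to 53.5 at 8 h, and 2 rose after cyclic loess or without the JAK1, the JAK1/2 or the TYK2 pair. Only 1 of 6 NK cell markers and 1 of 8 granulocyte markers reached the filter on dim genes and neither changed as deposited, although the NK cell marker was called lower after median centring, after cyclic loess and without the PAN pair. Plasma cell markers went from 23.8 to 24.0 down to 22.8 to 23, with Irf4, which T cells also express, as the 1 of 3 that fell. In such bulk RNA, fewer cells of a type and less RNA per cell cannot be told apart, and the part of these cells in the results below was not tested.

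Genes of the interferon response rose broadly. The 14 interferon lists hold 121 tested genes, of which 83 rose (68.6%, against 16.9% of all genes tested), 10 fell and 28 did neither. Their median change was 0.38, where that of all genes was -0.01, and 45 of the 83 rose at least 1.5-fold against 2.12% of all genes. All 4 inhibitors gave a positive change in 77 of the 83. The paired fit favours genes with a shared sign, and 5020 of all 5221 calls had one. The levels at 2 h and 8 h did not overlap in 31 of the 83 (1433 of the 1997 risers among all genes) and the level with JAK1 was often below the others at both times. Under the other settings tried, the count lay between 64 without pairing by inhibitor and 95.

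The response element named above was looked for in the promoters of the strongest risers, and its letters are shown where they were found. The 250 bases before the transcription start come from RefSeq (mouse assembly GRCm38.p6), are written on the gene's strand from 5′ to 3′, and carry in capitals each match to GAAANNGAA or, on the opposite strand, TTCNNTTTC. Ifit3 lies on the plus strand at chr19:34583279-34583528, Oas3 on the minus strand at chr5:120777660-120777909 and Ifit1 on the plus strand at chr19:34640639-34640888. Ifit1 was added after its values were seen.
Ifit3: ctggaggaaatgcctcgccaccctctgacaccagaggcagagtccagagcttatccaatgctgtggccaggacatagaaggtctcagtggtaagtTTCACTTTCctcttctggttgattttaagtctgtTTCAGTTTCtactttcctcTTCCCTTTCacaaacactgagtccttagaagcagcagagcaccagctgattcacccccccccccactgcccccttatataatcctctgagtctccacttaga
Oas3: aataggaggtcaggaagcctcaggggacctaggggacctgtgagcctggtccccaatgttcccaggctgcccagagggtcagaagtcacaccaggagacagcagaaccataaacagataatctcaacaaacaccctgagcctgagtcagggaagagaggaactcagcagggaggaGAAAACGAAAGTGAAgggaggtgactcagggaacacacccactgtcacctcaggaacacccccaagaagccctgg
Ifit1: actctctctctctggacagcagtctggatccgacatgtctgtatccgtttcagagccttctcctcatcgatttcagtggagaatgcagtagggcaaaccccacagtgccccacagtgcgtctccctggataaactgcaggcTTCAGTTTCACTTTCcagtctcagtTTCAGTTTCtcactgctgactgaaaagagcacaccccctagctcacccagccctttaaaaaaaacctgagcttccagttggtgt
Ifit3 held 3 matches, Oas3 held 2 that overlap, and Ifit1 held 3, of which 2 overlap. Herc6 and Irf7, the next risers of the lists with a promoter in the table, held 0 in this window, which says only that these letters are not there. Of the 83 risers 63 had a promoter in the table and 24 of those held the motif (38.1%), against 8.18% of 27025 promoters, 7.03% of 9497 promoters of genes tested, 9.22% for all risers and 6.86% for all genes that fell. A match is a description and not a shown site.

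The IFIT proteins bind foreign RNA, and all 3 tested members rose. Ifit3 was at 5.93, 7.19, 7.51 and 7.15 at 2 h and at 7.13, 9.42, 9.63 and 9.05 at 8 h. The level was higher at 8 h with each inhibitor, and the JAK1 array at 8 h was still below 3 of the 2 h arrays. Its rise of 1.86 (SE 0.14, 3.64-fold, limma adjusted p = 5.70e-06) was the largest of all genes tested. Ifit1 was at 7.21, 8.82, 9.0 and 8.87 at 2 h and at 8.52, 10.33, 10.42 and 9.99 at 8 h. All 4 pairs moved alike, by 1.12 to 1.51, for a rise of 1.34 (SE 0.08). Ifit2 rose by 1.04 (SE 0.10).

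The oligoadenylate synthetases make the messenger that activates RNase L, and all 7 tested members rose, with a median of 0.90. Oas3 went from 7.41, 8.06, 8.17 and 8.17 to 9.12, 10.03, 10.13 and 9.89, a rise of 1.84 (SE 0.08, adjusted p = 2.04e-07 in the limma fit) without overlap between the times. Oas1b rose by 0.90 (SE 0.08) and Oas1c by 0.83 (SE 0.08). Oas2 and Oasl2 differed from these in the JAK1 pair: Oas2 went from 6.72, 6.72, 6.98 and 6.79 to 6.99, 8.57, 8.66 and 8.26. The JAK1 array at 8 h was close to the 2 h arrays, while the other 3 were far above them. The change in Oas2 was 0.27 with JAK1 and 1.84, 1.68 and 1.47 with the others, for a rise of 1.31 (SE 0.20), or 1.66 without the JAK1 pair.

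Among the antiviral GTPases Mx1 and Mx2, viperin (Rsad2) and the mitochondrial nucleotide kinase Cmpk2, all 4 rose, with a median of 1.03. Mx2 had a mean of 6.25 over the 8 arrays, under the 6.27 of the filter on dim genes. It passed that filter through the arrays of the 3 other inhibitors, where it was at 7.13 to 8.10. Rsad2 was at 6.54, 7.25, 7.33 and 7.12 at 2 h and at 6.81, 8.80, 9.20 and 8.57 at 8 h. Mx1 was at 5.30, 6.04, 6.23 and 5.79 and then at 5.58, 7.38, 7.65 and 7.03. In both genes the JAK1 array at 8 h stayed below the lowest of the other 3 arrays at 2 h. Rsad2 rose by 1.28 (SE 0.20, limma adjusted p = 5.78e-04) and by 1.62 without the JAK1 pair, and Mx1 by 1.07 (SE 0.16) and by 1.33 without it. Mx2, Oasl2 and Cmpk2, with rises of 0.98, 1.03 and 0.64, did not pass without pairing by inhibitor (limma adjusted p = 0.0668, 0.0517 and 0.101).

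**Figure D1:**
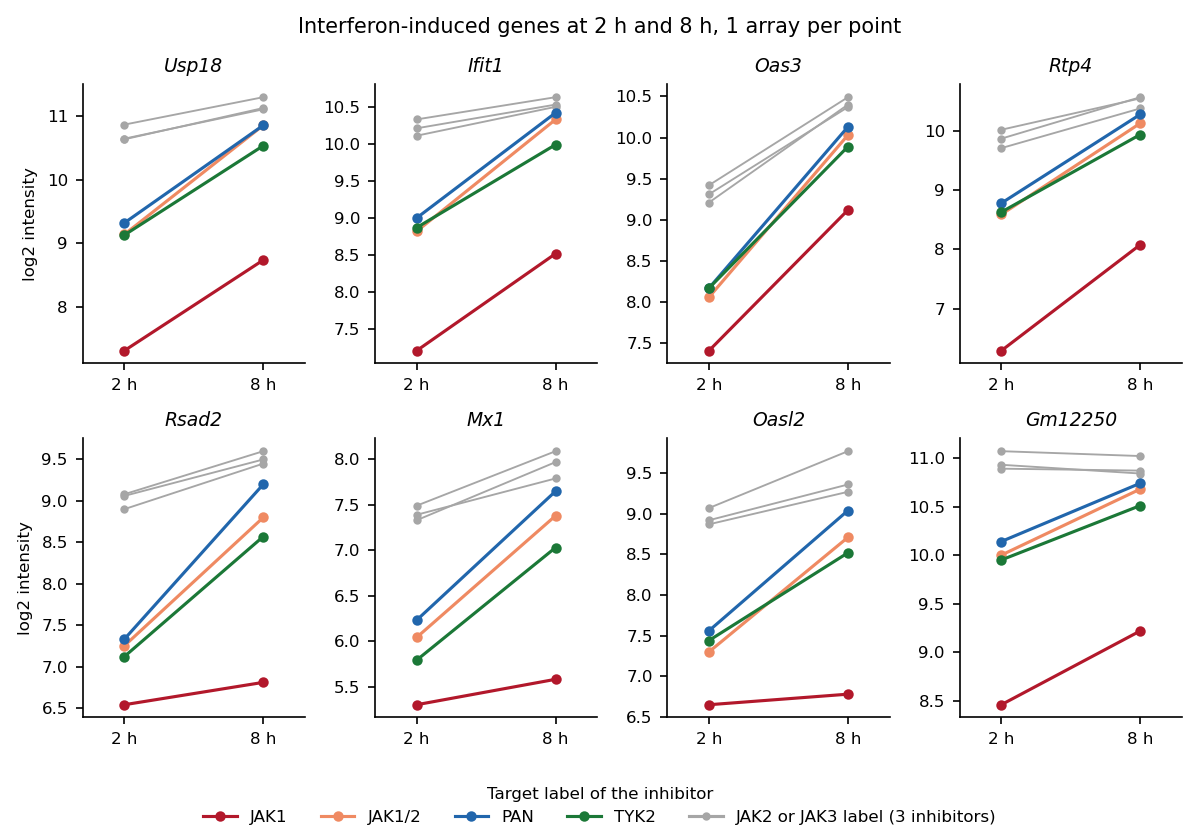
Log2 intensity of 8 interferon-induced genes at 2 h and 8 h, with 1 point per array and a line joining the arrays of an inhibitor; each panel has its own vertical axis. Coloured lines are the inhibitors labelled JAK1, JAK1/2, PAN and TYK2, and grey lines the 3 labelled JAK2 or JAK3. The JAK1 line is the lowest in every panel and climbs in Usp18, Ifit1, Oas3, Rtp4 and Gm12250, and little in Rsad2, Mx1 and Oasl2.

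ISG15 is a ubiquitin-like tag that the enzymes Uba7, Ube2l6 and Herc6 attach and Usp18 removes. Usp18 was at 7.32, 9.14, 9.32 and 9.13 at 2 h and at 8.74, 10.85, 10.85 and 10.53 at 8 h. The 4 changes lay between 1.40 and 1.71, for a rise of 1.52 (SE 0.08, 2.86-fold, limma adjusted p = 5.41e-07). Herc6, the ligase, rose by 1.55 (SE 0.11) and Uba7, the activating enzyme, by 0.55 (SE 0.10). Ube2l6, the conjugating enzyme between them, went from 7.96, 7.87, 7.79 and 7.74 to 6.65, 8.15, 8.39 and 8.00. Its JAK1 array at 8 h was the lowest of the 8 and the other 3 the highest, so the mean change was -0.04 (SE 0.24, limma adjusted p = 0.892), and 0.38 without the JAK1 pair (adjusted p = 0.003, limma on 3 pairs). Isg15 was not analysed here.

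Of the factors that carry the signal, Irf7, which amplifies interferon transcription, was at 7.23, 9.01, 8.86 and 9.02 at 2 h and at 8.88, 10.48, 10.47 and 10.22 at 8 h. It rose with all 4 inhibitors, by 1.48 (SE 0.09, limma adjusted p = 1.24e-06). Stat2 rose by 0.68 (SE 0.09), Stat4 by 0.35 (SE 0.06) and Irf9 by 0.28 (SE 0.07), although Irf9 did not pass without pairing by inhibitor or without the JAK1/2 pair (limma adjusted p = 0.154 and 0.0552). Irf1, an early target of interferon signalling, stood at 9.50, 10.05, 10.18 and 10.26 and then at 9.73, 10.06, 10.01 and 10.05, with a change of -0.04 (SE 0.08) whose sign turned with the scaling. Irf8 fell by 1.30 (SE 0.09), Irf4 by 0.88 (SE 0.09) and Stat5a by 0.48 (SE 0.07), which are factors that T cell stimulation and cytokines other than interferon also control. In the whole list 6 of 14 rose and 3 fell (median 0.02), and 3 rose without the JAK1/2 pair.

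The sensors and effectors that the cell makes against viral nucleic acids rose broadly. Of 14 cytosolic sensors 11 rose (median 0.40), led by Dhx58, the LGP2 helicase, which went from 7.45, 8.49, 8.57 and 8.58 to 8.71, 10.37, 10.42 and 10.11 (1.63, SE 0.10). Ddx58, the RNA sensor RIG-I, rose by 0.72 (SE 0.07) and Ifi203 by 1.17 (SE 0.07). Of 15 genes of nuclear bodies and RNA restriction 14 rose (median 0.55), among them Pml, the scaffold of nuclear bodies, by 0.86 (SE 0.07), Xaf1 by 1.12 (SE 0.07), Samd9l by 1.14 (SE 0.08) and Rnf213 by 1.33 (SE 0.13). Of 10 TRIM ubiquitin ligases 9 rose (median 0.65), with Trim30d at 1.21 (SE 0.13) and Trim25, which activates RIG-I, at 0.64 (SE 0.07). All 6 tested Schlafen genes rose as deposited (median 0.65) and 4 after median centring, Slfn5 as deposited by 1.15 (SE 0.10) and Slfn8 by 1.05 (SE 0.07). The interferon-induced PARPs were smaller in change: 5 of 6 rose as deposited (median 0.33) with 2 without the JAK1/2 pair and 3 without PAN or TYK2, and Parp12 was at 0.37 (SE 0.17, limma adjusted p = 0.0955), or 0.65 without the JAK1 pair.

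The 15 largest rises of all genes held 7 of the lists' members and others that the lists leave out. Ifi213, Ifi208 and Ifi214, of the cluster of interferon-inducible p200 proteins on chromosome 1, rose by 1.74 (SE 0.07), 1.49 (SE 0.08) and 1.43 (SE 0.09), and whether their similar sequences share probes was not tested. Phf11c rose by 1.49 (SE 0.07) and Ms4a4c by 1.38 (SE 0.08). Rtp4, a receptor transporter that interferon induces and a list member, was at 6.29, 8.59, 8.78 and 8.63 at 2 h and at 8.08, 10.13, 10.28 and 9.94 at 8 h. Its JAK1 pair lay far below the other 3 at both times and had the largest change of the 4, 1.79, for a rise of 1.53 (SE 0.09). Ceacam1, an adhesion receptor, Nod1, a sensor of bacterial peptidoglycan, and A530021J07Rik completed the 15 with rises of 1.59, 1.39 and 1.61.

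A part of the interferon lists went the other way. Of 7 guanylate-binding proteins, GTPases that interferon gamma also induces, 4 fell and 1 rose (median -0.28). Gbp5 went from 8.64, 9.17, 9.28 and 9.36 to 7.51, 8.11, 8.28 and 8.03, lower at 8 h with every inhibitor and without overlap (-1.13, SE 0.08, limma adjusted p = 3.91e-06). Gbp3 fell by 0.39 (SE 0.08), while Gbp9 rose by 0.67 (SE 0.10). Cxcl10, a chemokine that attracts T cells, went from 7.44, 7.49, 7.47 and 7.19 to 6.46, 6.92, 6.96 and 6.81 and fell by 0.61 (SE 0.10). Among 12 genes of peptide loading for MHC class I, 3 rose, Tapbp by 0.40 (SE 0.06), Psmb10 by 0.30 (SE 0.06) and Tap1 by 0.29 (SE 0.06), and the number that rose was 3 to 6 over the scalings.

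The 4 inhibitors were not alike in how far the 83 risers moved. Their median change was 0.37 with JAK1, 0.74 with JAK1/2, 0.68 with PAN and 0.64 with TYK2. With IFN.3885, IFN.6226 and IFN.6228, which had no part in choosing the 83, it was 0.42, 0.39 and 0.34. The JAK1 value lay among these. The 83 were chosen by their rise in the 4 pairs, which favours larger values there. Over all 121 tested members the medians were 0.22, 0.50, 0.52 and 0.44, highest with PAN. JAK1 gave the smallest change of the 4 in 52 genes and the largest in 13, JAK1/2 the smallest in 9 and the largest in 34, PAN in 3 and 24, and TYK2 in 19 and 12. With 1 array per inhibitor and time there is no test of 1 inhibitor against another, and the values describe these arrays. Genes with a change near 0 with JAK1 (Oas2, Rsad2, Mx1, Mx2 and Oasl2, all between 0.13 and 0.28) stood beside genes in which its change equalled or passed the others (Rtp4 1.79, Ifi27l2a 1.73, Irf7 1.66, Ifi208 1.65 and Pml 1.02). With JAK1, Mx1 (5.30 and 5.58) and Mx2 (5.02 and 5.25) lay at both times under 6.27, the level of the filter on dim genes. Rsad2 (6.54), Oas2 (6.72) and Oasl2 (6.65) were just above it at 2 h. Ifit3 (5.93) and Rtp4 (6.29) also started low with JAK1 and rose by 1.20 and 1.79. Whether low levels or the signal of the JAK1 array at 8 h moved the JAK1 changes was not tested.

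**Figure D2:**
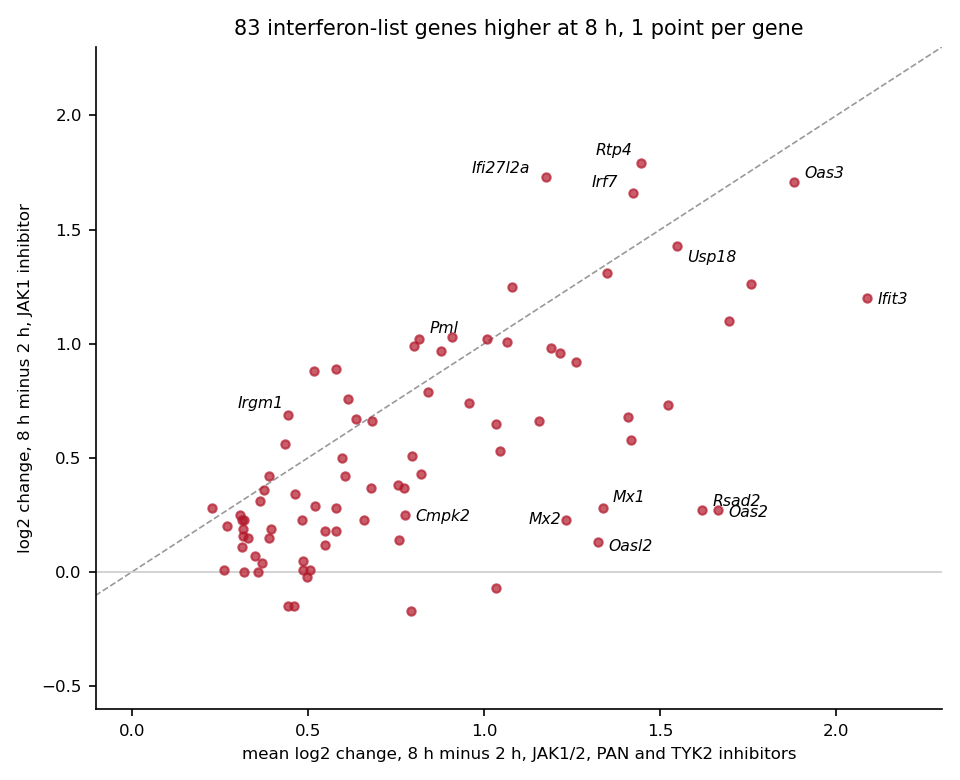
Change from 2 h to 8 h with the JAK1 inhibitor (vertical, log2) against the mean change with the JAK1/2, PAN and TYK2 inhibitors (horizontal, log2), with 1 point for each of the 83 interferon-list genes that rose. The dashed line marks equal change. Rtp4, Irf7 and Ifi27l2a lie above it, and Rsad2, Oas2, Mx1 and Oasl2 lie near a change of 0 with JAK1.

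The levels reached were set beside those with the JAK2 and JAK3 inhibitors. Of the 83 risers, 75 with JAK1, 74 with JAK1/2, 76 with PAN and 78 with TYK2 were at 2 h below the lowest 2 h level of those 3 inhibitors. By 8 h, 65 with JAK1/2, 73 with PAN and 53 with TYK2 had reached that 2 h level, against 16 with JAK1. Below the lowest 8 h level of the same 3 inhibitors were 81 genes with JAK1, 71 with JAK1/2, 58 with PAN and 77 with TYK2. Usp18, for example, was at 10.86, 10.63 and 10.64 at 2 h with IFN.3885, IFN.6226 and IFN.6228, a level that the JAK1/2 and PAN arrays at 8 h (both 10.85) reached and the TYK2 array (10.53) did not. Rsad2 was at 9.08, 8.90 and 9.06 in those 3 arrays, which the PAN array at 8 h passed (9.20) and the JAK1 array (6.81) was far below. The counts above were not made over all genes tested, so they do not show whether interferon genes differ from others in this. The 83 were chosen by their rise in these same arrays, which favours low levels at 2 h and high levels at 8 h. The counts are a description only.

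The difference between the changes of the 4 inhibitors and those of the 3 labelled JAK2 or JAK3 was tested with 1 value per inhibitor. Of 11851 genes 12 had a larger change with the 4 (0.101%) and 0 a smaller one (0.0%), with 1192 at an unadjusted p under 0.05 (limma, 4 against 3). They were Usp18, Ifit1, Rtp4, Slfn8, Slfn5, Irf7, Oas3, Irgm1, Dhx58, Trim25, Ifi208 and Gm12250, a GTPase of the same family as Irgm1. Among the 121 interferon genes 11 passed, and their median difference was 0.17 where that of all genes was -0.09. A positive difference was found in 92 of the 121, a count that was not made over all genes. The count was 2 without JAK1/2, JAK2 or either JAK3 inhibitor, 40 without JAK1, and 6 to 26 over the scalings.

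In 2 of the 12 genes the changes with the other 3 inhibitors were all below 0. Of all 11851 genes tested, 101 were up with all 4 inhibitors and down with the other 3, and 56 the reverse. Gm12250 went from 8.46, 10, 10.14 and 9.95 to 9.22, 10.68, 10.74 and 10.51, while with IFN.3885, IFN.6226 and IFN.6228 its changes were -0.05, -0.02 and -0.09. The difference was 0.70 (SE 0.09, limma adjusted p = 0.00759). Irgm1, a GTPase that acts on vacuoles and autophagy, changed by 0.69, 0.43, 0.39 and 0.51 and by -0.31, -0.02 and -0.13, a difference of 0.66 (SE 0.11, limma adjusted p = 0.0223). The 4 inhibitors started lower in both genes, and at 8 h the Gm12250 levels of 10.68 and 10.74 were below the 10.84 to 11.02 of the other 3. Neither rise passed without pairing by inhibitor (limma adjusted p = 0.185 and 0.166). The difference in Gm12250 did not pass without the JAK1/2 inhibitor (adjusted p = 0.0535 in limma) or without IFN.3885, IFN.6226 or IFN.6228 (0.0549, 0.0603 and 0.115). That in Irgm1 did not pass without JAK1/2 or TYK2 (limma adjusted p = 0.0927 and 0.0654) or without those 3 in turn (0.262, 0.0662 and 0.147). Nor did it pass after median centring or with no variance trend (limma adjusted p = 0.0636 and 0.097). Trim25 and Irf7 had positive changes with all 7 inhibitors, and differences of 0.52 (SE 0.09) and 0.83 (SE 0.12). The difference in Irf7 did not pass without JAK1/2 (limma adjusted p = 0.0927) or without IFN.3885, IFN.6226 or IFN.6228 (0.0883, 0.138 and 0.121). That in Trim25 also did not pass after median centring (limma adjusted p = 0.255), with no filter on dim probe sets (0.0717), with an offset of 50 (0.0715), with no variance trend (0.201), or without any 1 of the inhibitors other than JAK1 (0.0731 to 0.377). Usp18 and Ifit1 passed in every setting tried, and the other 10 genes did not pass without JAK1/2, IFN.3885, IFN.6226 or IFN.6228.

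The genes of the interferon receptors and the JAK kinases moved in both directions. Ifnar2 rose by 0.46 (SE 0.06, limma adjusted p = 2.83e-04), Tyk2 by 0.33 (SE 0.08) and Jak1 by 0.28 (SE 0.06). Jak2 fell by 0.42 (SE 0.06), Ifngr2, a chain of the interferon gamma receptor, by 0.83 (SE 0.07), and Ifnar1 by 0.26 (SE 0.06), the last not called after centring on the genes tested or without the TYK2 pair (limma adjusted p = 0.0524 and 0.0563). With the 3 other inhibitors the mean changes of Jak1, Tyk2 and Ifnar2 were 0.34, 0.38 and 0.53, and the differences between the groups of inhibitors did not pass (limma adjusted p = 0.708, 0.831 and 0.68).

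Inhibitors of cytokine signalling that STAT5 induces fell. Of 8 members of the SOCS family and Cish, 5 fell and 0 rose (median -0.35; 27.2% of all genes fell). Cish went from 8.98, 9.89, 9.62 and 10.14 to 8.10, 8.26, 8.07 and 8.13, with the 2 h levels spread over more than 1 unit and the 8 h levels close together. It fell by 1.52 (SE 0.14, limma adjusted p = 2.13e-05). Socs2 fell by 1.53 (SE 0.09) and Socs1, which binds JAK kinases, by 0.66 (SE 0.08), from 9.17, 9.62, 9.48 and 9.73 to 8.64, 9.04, 8.87 and 8.80. Socs3 was at -0.02 (SE 0.12), with a sign that turned with the scaling. Socs1 and Usp18, both restrainers of the interferon receptor, thus moved in opposite directions in the same cells. With the 3 other inhibitors the mean changes of Cish, Socs2 and Socs1 were -1.44, -1.37 and -0.79. The differences between the groups of inhibitors did not pass (limma adjusted p = 0.827, 0.533 and 0.609).

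Of 26 genes that interleukin-2 and STAT5 induce, 15 fell and 3 rose (median -0.69), and the count that fell was 15 under each scaling. The list median was also negative with IFN.3885, IFN.6226 and IFN.6228, at -0.39, -0.64 and -0.58. Il2 itself, counted among the cytokines, went from 10, 9.88, 9.69 and 9.65 to 7.07, 7.01, 7.16 and 6.75, a fall of 2.81 (SE 0.09, 7.01-fold, limma adjusted p = 3.58e-08). Its mean change with the 3 other inhibitors was -2.54. Il2ra, the chain that gives the interleukin-2 receptor its high affinity, fell by 0.86 (SE 0.06), Cdk6 by 1.42 (SE 0.09) and Tnfrsf4, the receptor OX40, by 1.02 (SE 0.06). Il4ra and Ltb, which rose by 0.40 (SE 0.08) and 0.46 (SE 0.08), are the exceptions with Ccnd3, whose 0.32 (SE 0.09) was 0.20 without the JAK1 pair and did not pass without the JAK1/2 pair (limma adjusted p = 0.052).

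Early response genes of T cell receptor stimulation fell. Nr4a3, an orphan nuclear receptor that stimulation induces, went from 11.12, 10.83, 10.74 and 11.28 to 8.09, 7.35, 7.83 and 7.57. All 4 arrays at 8 h lay far below all 4 at 2 h, and the fall of 3.28 (SE 0.12, 9.74-fold, limma adjusted p = 6.70e-08) was the largest of all genes tested. Nr4a1 fell by 2.41 (SE 0.09) and Egr2 by 2.12 (SE 0.09), and of 12 NR4A and EGR factors 11 fell. With the 3 other inhibitors the mean changes of Nr4a3, Nr4a1 and Egr2 were -3.24, -2.31 and -1.94. Of 15 AP-1 and BATF factors 11 fell, Atf3 by 1.49 (SE 0.10), Fosl2 by 1.32 (SE 0.08) and Fosb by 0.82 (SE 0.10), but 6 to 11 fell over the scalings and 7 without the TYK2 pair. Of 16 NF-kB subunits and their feedback inhibitors 13 fell, led by Nfkbid at -1.86 (SE 0.08) and Nfkb2 at -1.28 (SE 0.09). Of 10 dual-specificity phosphatases, which switch off MAP kinases, 6 fell, Dusp4 by 2.24 (SE 0.11).

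Among cytokines and surface proteins of activated cells the directions were mixed. Of 11 effector cytokines 7 fell (median -0.84), among them Tnf by 1.27 (SE 0.09) and Lif by 1.22 (SE 0.11). The list median with IFN.3885, IFN.6226 and IFN.6228 was -1.03, -0.70 and -0.56. Of 10 chemokine receptors 4 rose and 4 fell (median 0.10), with 2 to 5 rises over the scalings and 2 without the JAK1, the JAK1/2 or the TYK2 pair. Ccr8, the receptor with the largest fall, went from 11.07, 11.09, 11.02 and 10.71 to 8.34, 8.33, 8.66 and 8.17 and fell by 2.60 (SE 0.08). Of 21 costimulatory and inhibitory receptors 6 rose and 8 fell (median -0.02), and of 17 interleukin receptor chains 6 rose and 5 fell (median 0.01). Among all genes tested 16.9% rose and 27.2% fell. Cd69 fell by 1.36 (SE 0.08), Cd83 by 1.25 (SE 0.08), Cd274, the ligand PD-L1, by 1.13 (SE 0.07), and Il12rb2, a chain of the interleukin-12 receptor, by 1.34 (SE 0.11). Of 20 TNF superfamily genes 12 fell and 5 rose, with Fasl at -1.25 (SE 0.08) and the receptors Tnfrsf1a and Cd27 at 0.62 (SE 0.10) and 0.53 (SE 0.09). Of 13 TGF-beta pathway genes 11 fell, including the repressors Skil by 1.98 (SE 0.07), Tgif1 by 1.33 (SE 0.08) and Smad7 by 1.20 (SE 0.08), and Pmepa1, a feedback inhibitor of the same pathway, fell by 2.14 (SE 0.07).

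**Figure D3:**
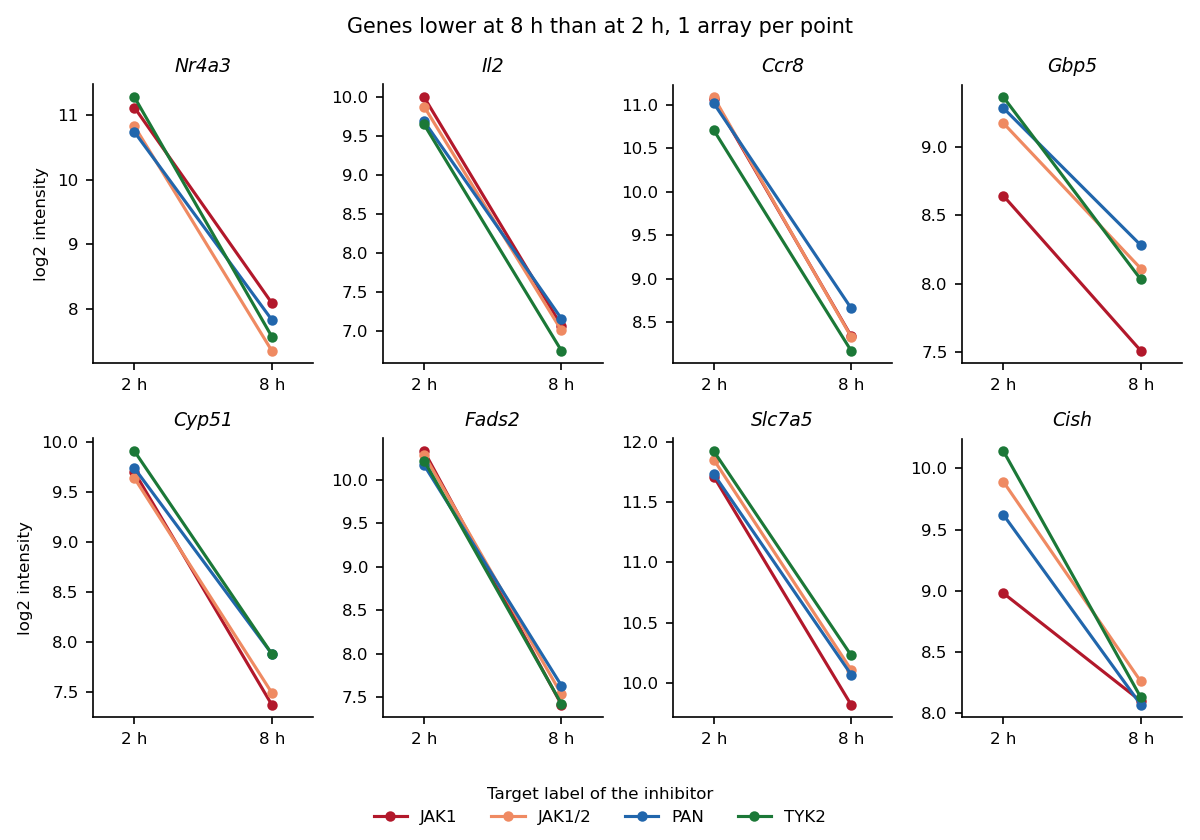
Log2 intensity of 8 genes that fell, at 2 h and 8 h, with 1 point per array and a line joining the 2 arrays of an inhibitor; each panel has its own vertical axis. The 4 lines run nearly parallel in Nr4a3, Il2, Ccr8, Gbp5, Cyp51, Fads2 and Slc7a5, and in Cish the JAK1 line starts below the others at 2 h.

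Other genes of these lists rose. Cd226, an activating receptor, went up by 1.36 (SE 0.08), from 8.44, 8.40, 8.41 and 8.15 to 9.65, 9.84, 9.86 and 9.50 without overlap. Cd96, which binds the same ligand, rose by 0.74 (SE 0.07). Of 17 quiescence and homing genes 9 rose and 1 fell (median 0.16; 7 to 12 rose over the scalings), Pik3ip1, an inhibitor of PI3 kinase, by 1.05 (SE 0.07) and Btg2, an antiproliferative factor, by 0.60 (SE 0.09). Cxcr3, a receptor for Cxcl10, rose by 0.61 (SE 0.08), and Ccl5, another chemokine, by 0.72 (SE 0.08), while Ccr4 fell by 0.90 (SE 0.07) and Cxcr4 by 0.77 (SE 0.08). Of 16 T helper lineage factors 5 rose and 4 fell (median 0.00), where 16.9% and 27.2% of all genes tested did. Id3 and Ikzf3 rose by 0.63 (SE 0.11) and 0.51 (SE 0.06), and Runx3 and Bcl6 fell by 1.16 (SE 0.08) and 0.84 (SE 0.10).

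Metabolic programmes of the stimulated cell were lower at 8 h. Of 25 genes of sterol and fatty acid synthesis 23 fell and 0 rose (median -0.68). The list median was -0.38, -0.67 and -0.55 with IFN.3885, IFN.6226 and IFN.6228. Cyp51, a demethylase of sterol synthesis, went from 9.70, 9.64, 9.74 and 9.91 to 7.37, 7.49, 7.88 and 7.88 (-2.09, SE 0.09, limma adjusted p = 1.72e-07), with no overlap between the times. Idi1 fell by 1.89 (SE 0.09), Scd1, a fatty acid desaturase, by 1.77 (SE 0.08) and Lss, lanosterol synthase, by 1.76 (SE 0.08). Fads2, a desaturase outside the list, fell by 2.75 (SE 0.08), from 10.17 to 10.33 at 2 h down to 7.41 to 7.63. Of 25 genes of ATF4 and amino acid supply 19 fell and 2 rose (median -0.62). Slc7a5, a transporter of large neutral amino acids, fell by 1.74 (SE 0.07) and Slc7a1, which carries arginine, by 1.49 (SE 0.08), while Ddit4, an inhibitor of mTORC1, rose by 0.43 (SE 0.08). Of 23 genes of glycolysis and hypoxia 16 fell and 1 rose, with Egln3, an oxygen sensor, at -2.07 (SE 0.12), Aldoc at -1.38 (SE 0.09) and Vegfa at -0.60 (SE 0.09).

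MYC targets and genes of ribosome assembly fell in 28 of 31 cases, with 0 rises and a median of -0.75, and 27 to 29 fell over the scalings. With IFN.3885, IFN.6226 and IFN.6228 the list median was -0.51, -0.70 and -0.73. Odc1, the first enzyme of polyamine synthesis, fell by 1.54 (SE 0.09), Gnl3, a nucleolar GTPase, by 1.35 (SE 0.08) and Nolc1, of the nucleolus, by 1.19 (SE 0.08). Myc was at 10.98, 11.06, 11.11 and 11.16 and then at 10.48, 10.56, 10.65 and 10.28, a fall of 0.59 (SE 0.08), and Tfrc, the transferrin receptor, fell by 1.00 (SE 0.09). Of 27 chaperones and genes of the unfolded protein response 21 fell (median -0.22), among them Hspa9 by 1.10 (SE 0.06) and Hspd1 by 0.67 (SE 0.06), both of mitochondria. That count was 11 after centring on the genes tested, 13 after cyclic loess, and 10 and 13 without the JAK1/2 and the TYK2 pair. In oxidative phosphorylation 14 of 28 fell (median -0.13) as deposited, against 27.2% of all genes tested. The count was 7 after cyclic loess or centring on the genes tested and 5, 8 and 6 without the JAK1/2, the PAN and the TYK2 pair.

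Genes of the cell cycle moved in 2 directions. Of 37 genes of G1 and S phase 27 fell and 2 rose (median -0.31), including the replication licensing factors Cdc6 by 0.59 (SE 0.07) and Mcm3 by 0.56 (SE 0.07). Of 37 genes of G2 and mitosis 21 rose and 0 fell (median 0.25), including Cdc25b, a phosphatase that starts mitosis, by 0.96 (SE 0.09), the kinetochore gene Cenpf by 0.56 (SE 0.08) and Cdc20 by 0.55 (SE 0.07). Cdc25b went from 10.44, 10.33, 10.17 and 10.09 to 11.11, 11.24, 11.36 and 11.16, and the times did not overlap. The median of the mitotic list was 0.04 with JAK1, 0.27 with JAK1/2, 0.32 with PAN and 0.37 with TYK2. The number that rose was 18 to 32 over the scalings and 13 without the TYK2 pair, and none fell in any of these. Cdkn2c, an inhibitor of the G1 kinases, rose by 0.66 (SE 0.09).

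**Figure D4:**
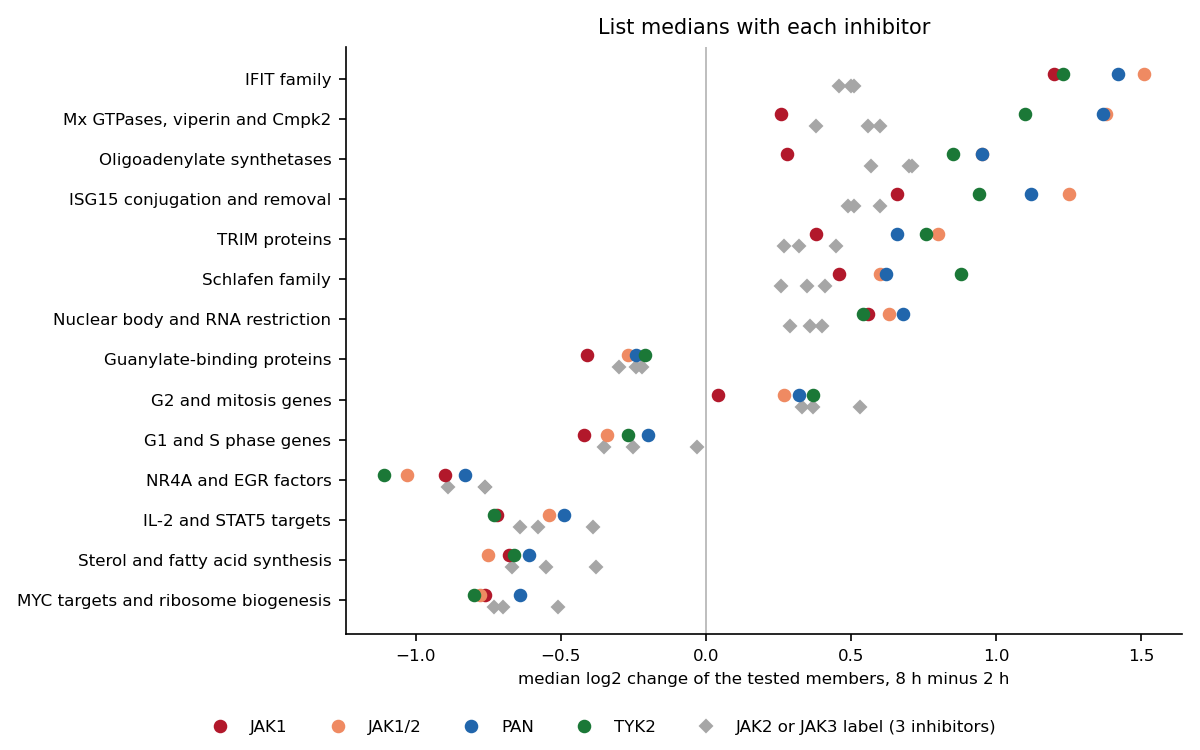
Median change from 2 h to 8 h (log2) of the tested members of 14 gene lists, with coloured points for the inhibitors labelled JAK1, JAK1/2, PAN and TYK2 and grey diamonds for the 3 labelled JAK2 or JAK3. In the IFIT list the 4 coloured points (1.20 to 1.51) lie above the diamonds (0.46 to 0.51), and in the Mx, viperin and Cmpk2 list the JAK1 point (0.26) lies below all others.

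**Figure D5:**
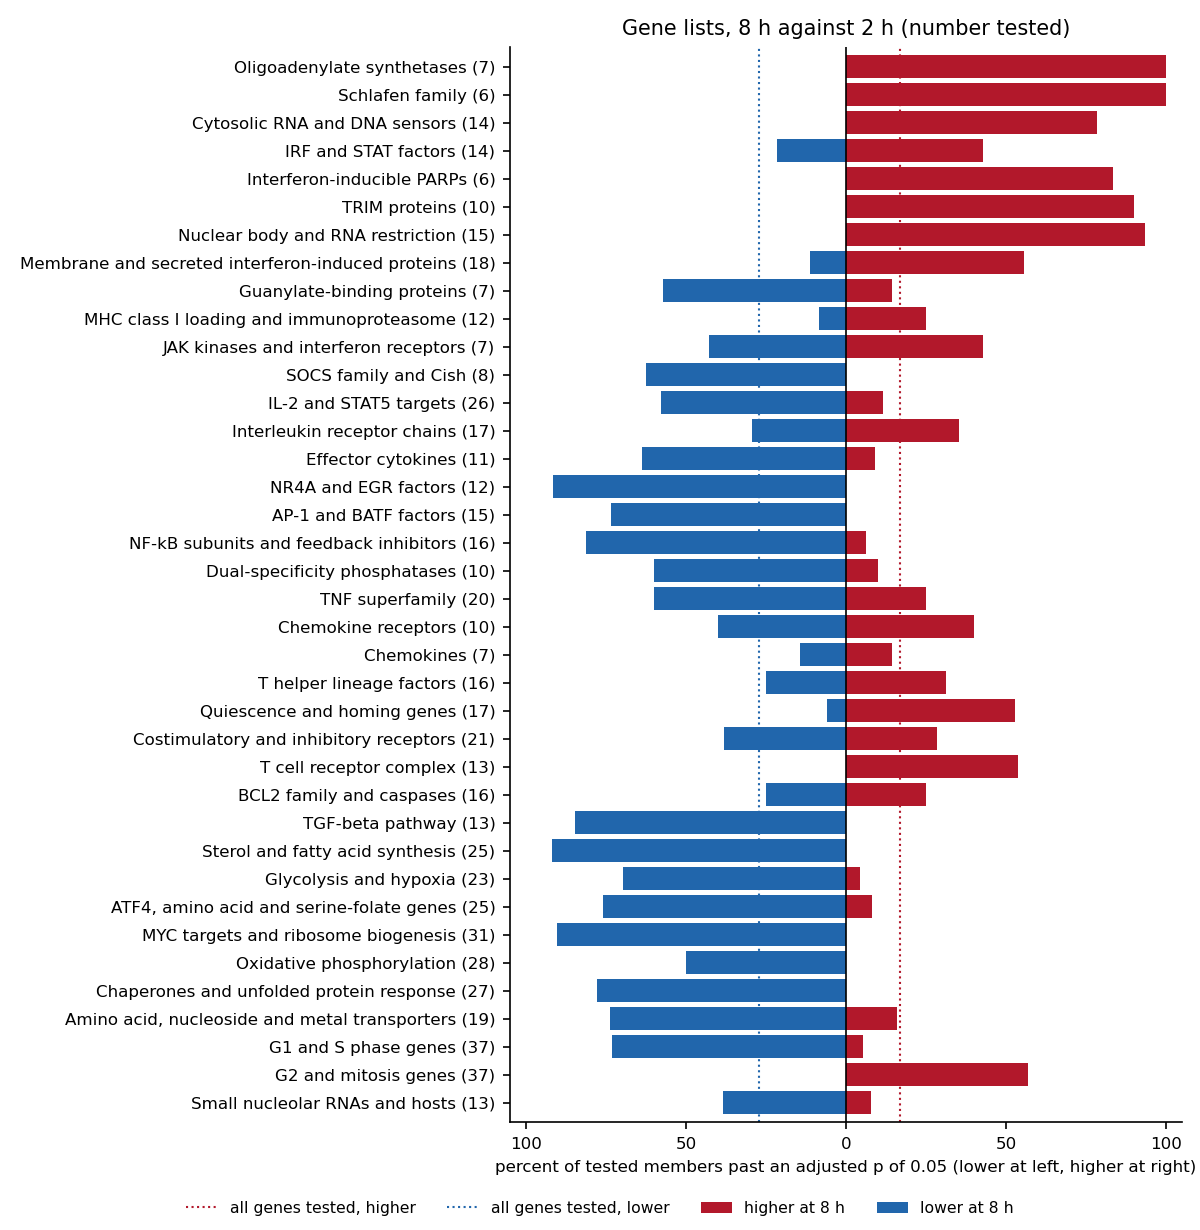
Percent of the tested members of each list that rose (right, red) or fell (left, blue) past an adjusted p of 0.05, for lists with at least 5 tested members, whose number is in brackets. Dotted lines mark the shares of all genes tested, 16.9% and 27.2%. The interferon lists extend to the right, apart from the guanylate-binding proteins, and the stimulation and metabolic lists extend to the left.

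Several of the largest differences among the 4 inhibitors lay in the JAK1 pair. Examples from the 10 genes with the largest SD of the 4 changes are given as a description with no test. AY036118, a transcript of unknown function, was at 10.72, 10.66, 10.38 and 10.32 at 2 h and at 12.90, 10.03, 10.45 and 10.38 at 8 h. The histone gene H2ac4 went from 9.80, 10.40, 10.85 and 11.06 to 11.65, 10.28, 10.56 and 11.03. Its JAK1 array at 2 h was the lowest of the 8. Rprl1 and Rprl2, loci like the RNA component of RNase P, changed by 1.87 and 1.81 with JAK1 and by -0.20 to 0.24 with the others. In each of these 4 genes the JAK1 array at 8 h was the highest of the 8. Psmb4, a proteasome subunit outside the rule and noted after its values were seen, moved the opposite way in that array, from 11.27 to 9.78, while the other 3 pairs changed by -0.16 to -0.03. Small nucleolar RNAs and their host genes had a median of 0.10 with JAK1 and of -0.21 to -0.17 with the other 3. Ccl3, a chemokine among the 10, had its largest change with TYK2, with values of -0.16, 0.74, -0.06 and -1.44.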

How the data were processed

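Total RNA was hybridised to 14 arrays of the type Mouse Gene 1.0 ST. The deposited intensity of each probe set was used, on a linear scale. RMA and Affymetrix Power Tools are listed, per the submitters' processing notes, with no version. Intensities of the 8 arrays ran from 4.78 to 22879 with medians of 111 to 121, and precision is limited by how many arrays there are. Of 24922 probe sets, 21425 had 1 gene symbol (19752 genes), 1399 several and 2098 none, and 21347 identifiers matched RefSeq of GRCm38.p6. For each gene the probe set with the highest mean over the 14 arrays was kept. Genes under the 40th percentile of that mean level (6.27 on the log2 scale) were left out, which left 11851. A gene dim in the 8 arrays could thus pass through the other 6. No pair of the 8 arrays held identical values.

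Levels are log2 of the intensity, with no further scaling. The change from 2 h to 8 h was fitted in limma 3.58.1 (R 4.3.3) with inhibitor and time as terms and a variance trend (3 residual degrees of freedom, prior 7.57). The difference between the 4 inhibitors and the other 3 was fitted to the 7 changes. P-values were adjusted by the Benjamini-Hochberg method and the threshold was 0.05. The scripts were tested on simulated data. The random block used statmod 1.5.0. Lists were summarised in Python 3.11.15 (pandas 2.3.3, numpy 2.4.6) and drawn with matplotlib 3.10.9.

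The gene lists and the genes named were chosen with earlier results of these data known. Named were the 15 largest changes each way with the same sign in all 4 inhibitors, up to 3 members of each list each way by moderated t, up to 15 genes of the difference between inhibitor groups, the 10 with the largest SD of the 4 changes, and a set of interferon and JAK genes. Oas2, Trim30d, Rnf213, Pml, Cmpk2, Myc, Psmb4, Parp12, Cd3e, Tfrc and Vegfa fall outside this rule and were picked after their values were seen. Alternatives were other scalings (centring on the genes tested was added after seeing the data), filters, probe set summaries, an offset of 50, other moderation, pairing, the samples in the fit, and each inhibitor left out. Isg15, Jak3 and Nfkb1 were not analysed here.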

Additional observations from a re-analysis of the deposited data

Results flagged for a closer look

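In 210 named genes the change of 1 inhibitor was set against the other 3, and in 18 it stood apart by Dixon's criterion. Of these, 6 are among 23 genes chosen for their spread or after their values were seen. In the other 187 genes it was 12, near the rate of about 1 in 20 that chance flags, and the inhibitor was JAK1 in 8 of the 12. Many of the 187 were chosen by the size or evenness of these same changes, so that rate is only a guide. With JAK1 the change was closer to 0 than with the others in Mx1 (0.28), Ifi203 (0.92), Sp100 (0.74), Dusp5 (-0.71) and Ddit3 (-0.03). It was larger in Ifi27l2a (1.73), Ccnd3 (0.67), Odc1 (-1.82), H2ac4 (1.86), Rprl1 (1.87), Gm10874 (1.56) and Psmb4 (-1.50), and of opposite sign in Cd3e (-0.06, against 0.14 to 0.17). With TYK2 the change stood apart in Skil (-2.12), Oas1b (0.73) and Myc (-0.89), and with PAN in Il2 (-2.53) and Fasl (-1.35).

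The change differed between the 4 inhibitors and the 3 labelled JAK2 or JAK3, by limma with adjusted p under 0.05, in 12 genes, all with a larger value in the 4. The differences were 1.06 in Usp18, 1.00 in Ifit1, 0.95 in Slfn5, 0.90 in Rtp4, 0.86 in Dhx58, 0.83 in Irf7, 0.73 in Oas3, 0.70 in Gm12250 and Slfn8, 0.66 in Irgm1, 0.64 in Ifi208 and 0.52 in Trim25. Mb, a muscle gene, was higher at 8 h with each of the 4 and lower with each of the 3, with a difference of 0.51 that did not pass (limma adjusted p = 0.339). The same signs were found in 101 of the 11851 genes tested, and the opposite signs in 56.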

How the results depend on the processing

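Of 192 named genes that rose or fell, 169 were tested in all 17 settings other than the 1.5-fold threshold, and 150 of these kept call and direction in all of them. The other 23 fell below the filter at the 60th percentile, and 16 of them kept call and direction in the settings that tested them. Genes that rose numbered 1997, but 1312 after median centring, 1314 with a filter at the 60th percentile, 3929 after centring on the genes tested, 251 at 1.5-fold or more, and 1173 to 2352 with 1 inhibitor left out. Genes changed either way numbered 5221, but 1058 at 1.5-fold or more and 3398 to 5519 with 1 left out. Genes that fell numbered 3224, but 807 at 1.5-fold or more and 2219 to 3167 with 1 left out. The interferon genes that rose numbered 83, but 45 at 1.5-fold or more and 66 to 91 with 1 left out. Genes that differed between the groups of inhibitors numbered 12, but 23 after quantile normalization, 6 after median centring, 26 after cyclic loess, 7 with an offset of 50, 25 after centring on the genes tested and 2 to 40 with 1 left out. Signs turned in genes that did not pass: Mpo was at -0.00 after quantile normalization and -0.02 after cyclic loess. Irf1 was at 0.08, 0.07, 0.06 and 0.07 after quantile normalization, cyclic loess, averaging of probe sets and centring on the genes tested, and at -0.12 to 0.02 with 1 left out. Socs3 was at 0.08, 0.04, 0.02 and 0.09 in the same settings and at -0.16 to 0.15 with 1 left out. The cause of these differences was not tested. No paired analysis by replicate number was possible because every title carries the number 1; pairing was by inhibitor. With 1 array per inhibitor and time, culture and inhibitor cannot be told apart.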
